A study of Rattus norvegicus with 30 samples.

Results

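The genes described here are 10 genes of the endoplasmic reticulum (ER) stress response and the amino acid response. *Hspa5* and *Hsp90b1* encode the ER chaperones BiP and GRP94, *Xbp1* and *Herpud1* belong to the IRE1 and ATF6 arms of the response, and *Atf4*, *Ddit3* (CHOP) and *Atf3* encode transcription factors of the PERK arm. *Trib3*, *Chac1* and *Asns* are targets of ATF4 and CHOP. They were taken by gene symbol, and each of the 10 symbols matched 1 of the 32545 genes in the deposited table. When unfolded protein builds up in the ER, the sensors IRE1, ATF6 and PERK are released from BiP. IRE1 splices the *Xbp1* mRNA and ATF6 is cut to an active factor, which raises chaperone transcription, while PERK phosphorylates eIF2alpha, which slows most translation and favors that of ATF4. The kinase GCN2 phosphorylates eIF2alpha when amino acids are short, so that genes such as *Asns* respond to either condition. In the kidney, the tubule epithelium makes large amounts of membrane and secreted protein, and this response has been followed there in injury and proteinuria.

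The study asked how the normal kidney responds to a high salt intake. Male Sprague-Dawley rats ate 0.4% NaCl (LS) or were moved from it to 4.0% NaCl for 14 d (HS14) or 21 d (HS21), and mRNAseq libraries were made from the cortex (Cx) and the outer medulla (OM) of the right kidney. Each of the 6 groups had 5 libraries, numbered 1 to 5 on LS, 6 to 10 at HS14 and 11 to 15 at HS21, which makes 30 in all. Blood flow probes and catheters were placed at the left kidney in the study, and whether the LS rats had the same surgery is not given in the sources used here. The methods give an age for the probe surgery only, not for tissue collection. They describe 5 kidneys per group dissected into Cx and OM, so that the tissues of a group share rats, while no source used here says that equal library numbers mark the same rat.

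Counts on genes summed to 12748841 to 21842843 per library, except for replicate 10 of OM HS14 with 5408126. Expression is given in CPM, the counts of a gene divided by the library's total after trimmed mean of M values scaling (TMM) and set to a common depth, as mean ± SD with n = 5 for every group. The tissue labels matched the nephron markers. The 8 proximal tubule markers summed to 25804 to 29846 CPM in Cx and to 591 to 13692 CPM in OM on LS, and the 5 thick ascending limb markers to 1342 to 1968 and 10132 to 21498 CPM. Replicate 2 of OM LS held the upper end of the proximal tubule range in OM and the lowest mean log2 CPM of the thick ascending limb markers in its group. Cell type markers moved with the diet in Cx at HS21: all 8 proximal tubule markers were lowered and all 5 leukocyte markers tested, all 5 macrophage markers and all 5 T cell markers raised. Of the other nephron markers tested there, 2 of 2 of the distal convoluted tubule, 3 of 3 of the collecting duct and 3 of 4 of the podocyte were raised, and of 5 of the thick ascending limb 2 were raised and 1 lowered. The collecting duct markers went from sums of 189.8 to 256 to 331 to 611 CPM. T cell markers went from sums of 3.34 to 6.55 CPM on LS to 11.2 to 68.6 CPM, with 9.90 to 12.2 CPM at HS14. Their part in the results below was not tested. In pieces of whole tissue, fewer cells of a type and less RNA per cell cannot be told apart.

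Stretches of promoter are shown for the genes with a match to a known stress element, since the members differ in which matches their searched windows hold. The ER stress element (ERSE, bound by ATF6 with NF-Y) was searched as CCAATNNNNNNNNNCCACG, its shorter form ERSE-II as ATTGGNCCACG, the unfolded protein response element (UPRE) as TGACGTGG, one form of the C/EBP-ATF response element (CARE, bound by ATF4) as TTGCATCA and the cAMP response element (CRE) as TGACGTCA. Both strands were read from 250 bases before to 50 bases after the annotated start in RefSeq (build GRCr8), where 9 of the 10 genes matched and *Atf3* did not. UPRE and CRE share their first letters, and ERSE-II holds the CCAAT box of ERSE in reverse. ERSE was in 0.0657% of all 33469 promoters, ERSE-II in 0.0508%, UPRE in 0.595%, CARE in 0.795% and CRE in 1.83%. ERSE was found in *Hspa5* at bases −43 to −25 from the start, in *Xbp1* at −65 to −47 and at 2 places in *Hsp90b1*, at −176 to −158 and, on the opposite strand, at −72 to −54. *Herpud1* had ERSE-II at −124 to −114 and a CARE at −184 to −177, and *Chac1* had a CARE at −167 to −160. None of the 5 strings was in the windows of *Atf4*, *Ddit3*, *Trib3* or *Asns*, and UPRE and CRE were in none of the 9. Other forms of these elements and sites outside the window were not searched, so a gene without a match is not shown to lack them. The stretches are printed 5′ to 3′ along the gene, with the matches in capitals.
Hspa5 (chr3:38452958-38453006, plus strand): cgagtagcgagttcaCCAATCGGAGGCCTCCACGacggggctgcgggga
Hsp90b1 (chr7:23012332-23012484, minus strand): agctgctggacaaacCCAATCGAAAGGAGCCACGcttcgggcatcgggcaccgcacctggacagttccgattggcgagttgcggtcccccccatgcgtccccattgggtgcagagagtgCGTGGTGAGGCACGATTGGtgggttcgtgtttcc
Xbp1 (chr14:84604543-84604591, plus strand): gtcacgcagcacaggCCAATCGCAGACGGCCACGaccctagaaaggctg
Herpud1 (chr19:10614806-10614906, minus strand): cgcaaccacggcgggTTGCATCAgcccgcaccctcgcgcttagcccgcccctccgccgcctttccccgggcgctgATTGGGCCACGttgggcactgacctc
Chac1 (chr3:126795949-126795986, plus strand): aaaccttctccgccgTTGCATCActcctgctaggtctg

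Levels per gene length set the chaperones far apart from the ATF4 targets. In Cx on LS the mean level in CPM per kilobase was 256 for *Hspa5* and 161 for *Hsp90b1*. It was 86.9 for *Atf4*, 86.7 for *Herpud1*, 61.5 for *Xbp1* and 19.3 for *Ddit3*. *Asns* (2.52), *Atf3* (1.33), *Trib3* (0.508) and *Chac1* (0.108) were the 4 lowest in every group. In OM on LS the 2 chaperones again led, with 178 and 121 CPM per kilobase, and *Chac1* (0.892) lay above *Trib3* (0.432), the reverse of their order in Cx. Ordered by group mean, the ranges of neighboring groups overlapped for every gene and step, with 1 exception: the mean of *Asns* was higher in all 3 OM groups than in any Cx group, and OM LS, the lowest of the OM means, did not overlap with Cx HS21, the highest of the Cx means. The plot of the 10 genes by library gives each value.

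**Figure D1:**
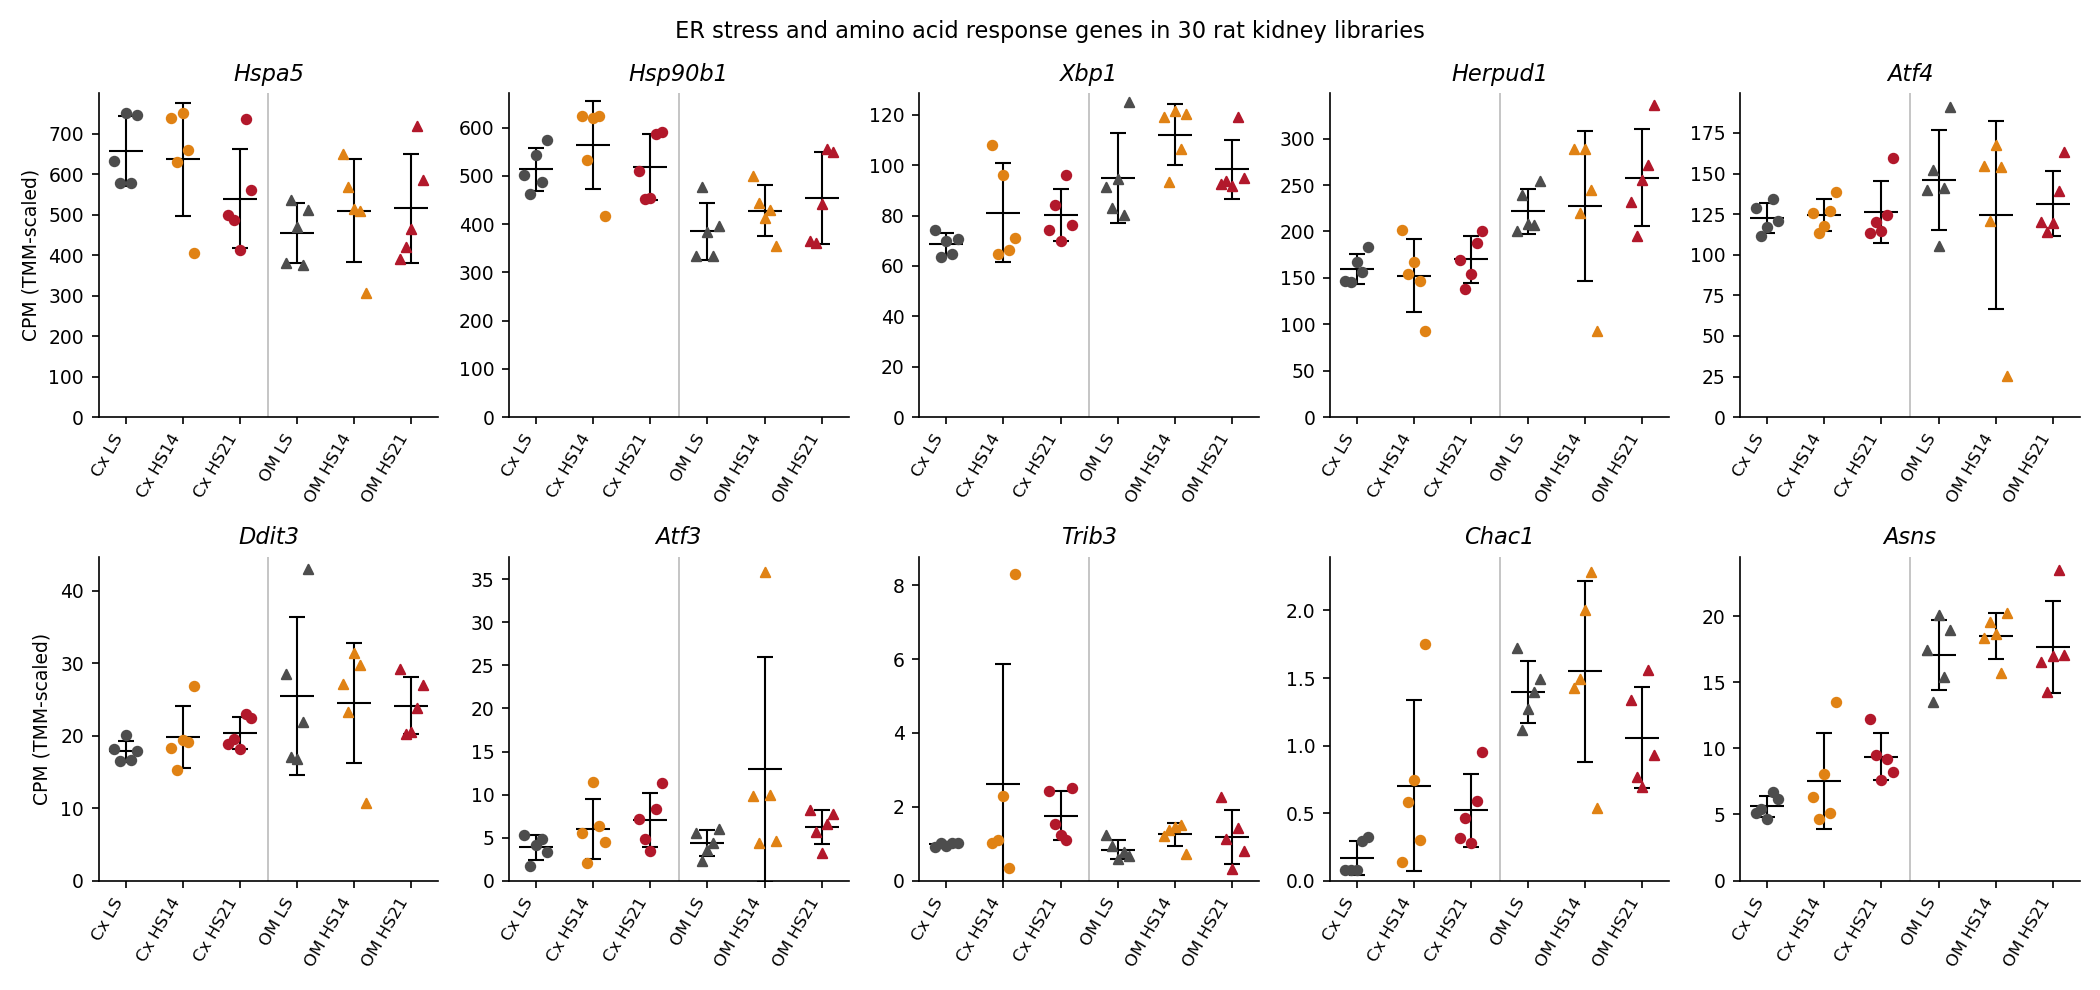
Expression of the 10 genes in CPM (TMM-scaled, linear axes from 0) in the 6 groups, with circles for Cx libraries, triangles for OM libraries and black bars for the mean ± SD (n = 5), cut at 0 where the SD exceeds the mean. The mean of *Asns* is higher in each OM group than in any Cx group, *Trib3* has 1 library at 8.32 CPM in Cx HS14, and *Atf4* has 1 library at 25.4 CPM in OM HS14.

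Few of these genes passed the test between high salt and LS. For every gene a log2 ratio (HS over LS) and its SE were fitted with edgeR's quasi-likelihood test, and a gene was called at an adjusted *P* (Benjamini-Hochberg over all genes tested) under 0.05. In Cx at HS21, *Asns* and *Trib3* were raised and none was lowered, 2 of the 9 genes tested, where 39.4% of all 14299 genes were called and 18.9% were raised. At an unadjusted *P* under 0.05 there were 4 of 9 against 48.1% of all genes. Total-count scaling called 5 of the 9, beside 4401 raised and 1653 lowered of 14299 genes. The members' share thus lay below that of all genes with TMM and above it with total-count scaling. DESeq2 called 4 of the 10, with *Chac1* tested and not called, beside 3043 raised and 2917 lowered of 21571 genes. No filter on low counts was set before the DESeq2 fit, and its own default filter on mean counts was left on for the adjusted *P*. The 21571 are all genes with any count in these libraries, rare ones among them. The shares therefore cannot be set side by side. In Cx at HS14 none of 9 was called (0 at an unadjusted *P* under 0.05, 0 by DESeq2), with a background of 2.33%. In OM none of 10 was called at HS14 (1 at an unadjusted *P* under 0.05, 0 by DESeq2, background 0.00694%) and none of 10 at HS21 (0 and 0, background 0.769%). The median log2 ratio of the members tested was 0.14 and 0.19 in Cx at HS14 and HS21, and 0.16 and 0.12 in OM, beside 0.00, 0.00, −0.02 and −0.03 for all genes. With total-count scaling in place of TMM, *Xbp1* at 0.35 (adjusted *P* = 0.00620), *Ddit3* at 0.32 (adjusted *P* = 0.0164) and *Atf3* at 0.99 (adjusted *P* = 0.0388) were called raised in Cx at HS21 too. The HS14 and HS21 comparisons of a tissue share their LS libraries.

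**Figure D2:**
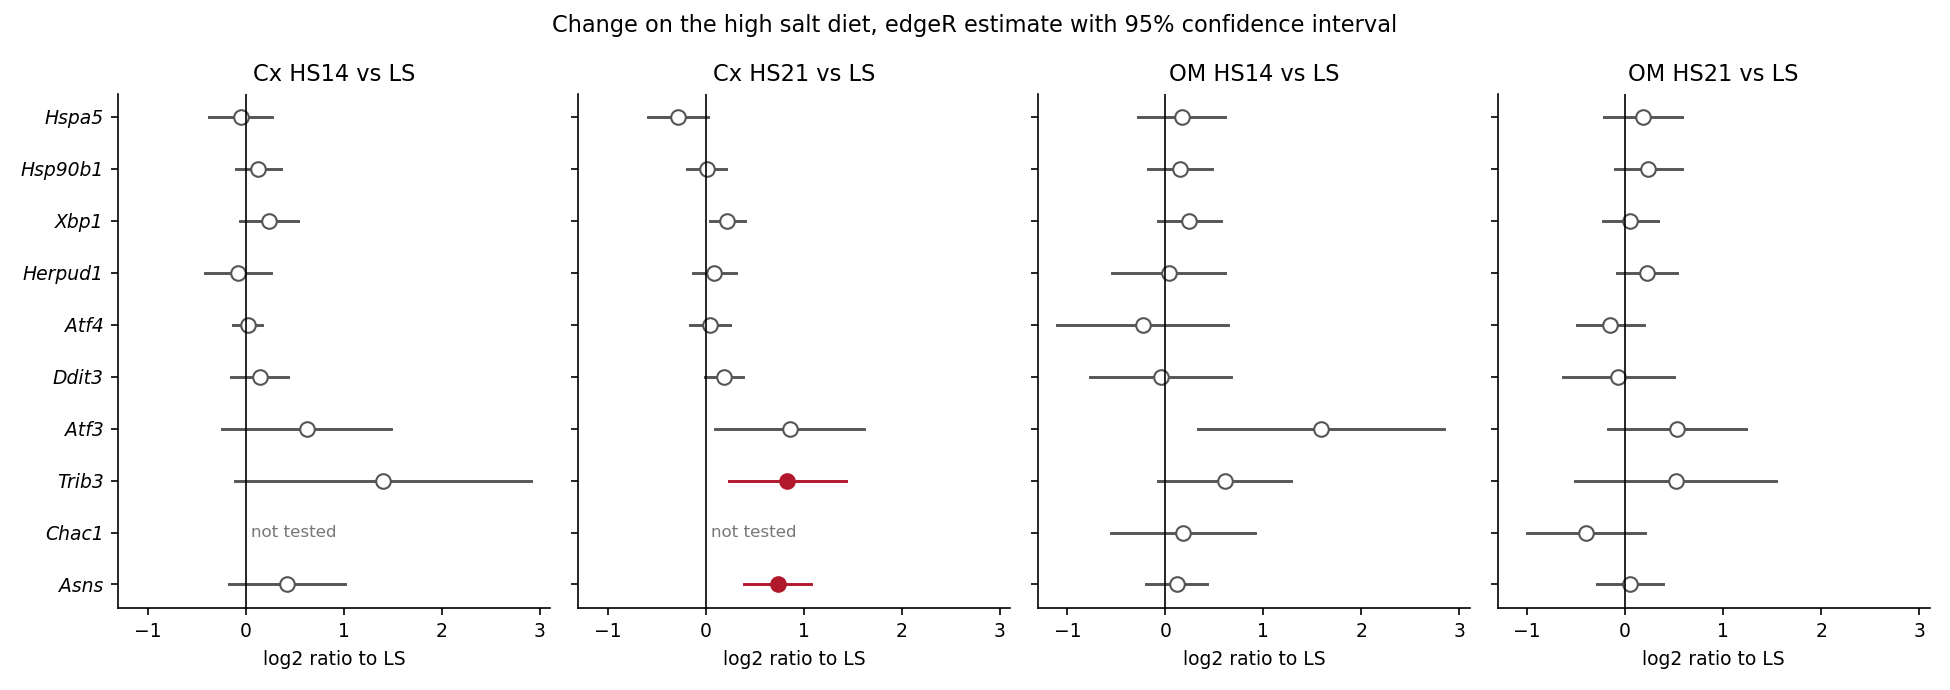
Log2 ratio of HS to LS (edgeR, TMM scaling) of the 10 genes in Cx and OM, with lines for the 95% confidence interval and filled red points for an adjusted *P* under 0.05. *Asns* (0.74) and *Trib3* (0.83) in Cx at HS21 are the 2 filled points, and *Chac1* was not tested in Cx because of its low counts.

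Neither ER chaperone was called in any comparison of high salt with LS. *Hspa5* (ENSRNOG00000018294, chromosome 3, 13838304 to 13842762 on the plus strand of build Rnor_6.0, which the files use), the chaperone that binds unfolded chains and holds the 3 sensors inactive, stood at 578, 578, 632, 746 and 751 CPM in the Cx LS libraries. At HS21 it stood at 414, 488, 501, 561 and 737 CPM, so that 4 of 5 libraries lay below every LS library and 1 did not. The log2 ratio was −0.28 (SE 0.14, adjusted *P* = 0.129), and without replicate 14 of Cx HS21 the gene was called lowered at −0.41 (adjusted *P* = 0.0159). Under 5 other settings, total-count scaling and DESeq2 among them, the ratio was −0.29 to −0.15 (adjusted *P* of 0.131 to 0.418) and none called it. At HS14 in Cx its ratio was −0.05 (SE 0.15, adjusted *P* = 0.899), and in OM it was 0.17 (SE 0.20, adjusted *P* = 0.994) at HS14 and 0.18 (SE 0.18, adjusted *P* = 0.820) at HS21. *Hsp90b1* (ENSRNOG00000026963, chromosome 7, 27226569 to 27240533), the ER member of the HSP90 family, ranged over 461 to 575 CPM on LS, 416 to 624 CPM at HS14 and 452 to 589.9 CPM at HS21 in Cx. Its log2 ratio at HS21 was 0.01 (SE 0.09, adjusted *P* = 0.930), with a 95% confidence interval of −0.19 to 0.21. In OM its ratio was 0.15 (SE 0.15, adjusted *P* = 0.994) at HS14 and 0.24 (SE 0.15, adjusted *P* = 0.659) at HS21. The groups overlapped for both genes in every diet comparison.

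*Xbp1* and *Herpud1* were not called either. *Xbp1* (ENSRNOG00000010298, chromosome 14, 85753760 to 85758145) encodes the factor made from the IRE1-spliced mRNA, and the counts here do not separate the spliced from the unspliced form. In Cx it stood at 63.4, 64.9, 69.8, 70.7 and 74.2 CPM on LS and at 70.1, 74.4, 76.2, 84.4 and 96.0 CPM at HS21. All 5 HS21 libraries lay above the LS median and 4 of them above every LS library (two-sided exact permutation test, *P* = 0.0317). The log2 ratio of 0.22 (SE 0.08, adjusted *P* = 0.0511) missed the threshold, and it passed without replicate 1 of Cx LS at 0.25 (adjusted *P* = 0.0482), without replicate 11 of Cx HS21 at 0.26 (adjusted *P* = 0.0436) and without replicate 13 of Cx HS21 at 0.27 (adjusted *P* = 0.0217). It also passed under 3 of 5 other settings. These were DESeq2's Wald test, at 0.23 (adjusted *P* = 0.0448), DESeq2's size factors in edgeR, and total-count scaling. At HS14 the Cx ratio was 0.23 (SE 0.13, adjusted *P* = 0.407), and the OM ratios were 0.24 (SE 0.15, adjusted *P* = 0.994) at HS14 and 0.05 (SE 0.13, adjusted *P* = 0.944) at HS21. *Herpud1* (ENSRNOG00000018796, chromosome 19, 11046909 to 11057254), a membrane protein of ER-associated degradation (ERAD), averaged 159.7 ± 15.96 CPM on LS and 169.9 ± 24.9 CPM at HS21 in Cx, a ratio of 0.09 (SE 0.10, adjusted *P* = 0.524). In OM it averaged 222 ± 23.7, 227 ± 80.8 and 258 ± 52.3 CPM on LS, at HS14 and at HS21. The HS21 ratio there was 0.22 (SE 0.14, adjusted *P* = 0.640), with a 95% confidence interval of −0.08 to 0.53.

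The transcription factors of the PERK arm were not called, and their spread differed. *Atf4* (ENSRNOG00000017801, chromosome 7, 121480723 to 121482781), the factor whose translation rises when eIF2alpha is phosphorylated, ranged in Cx over 111 to 135 CPM on LS, 114 to 139 CPM at HS14 and 113 to 159.6 CPM at HS21. Its log2 ratios were 0.02 (SE 0.07, adjusted *P* = 0.933) and 0.04 (SE 0.09, adjusted *P* = 0.746), with intervals of −0.13 to 0.17 and −0.16 to 0.25. *Ddit3* (ENSRNOG00000006789, chromosome 7, 70580198 to 70585084), which encodes CHOP, ranged over 16.5 to 20.04 CPM on LS and 18.2 to 23.0 CPM at HS21 in Cx, and its ratio of 0.19 (SE 0.09, adjusted *P* = 0.110) missed the threshold. *Ddit3* overlaps *Mars*, a methionyl tRNA synthetase gene on the other strand, and since the libraries keep no strand, reads from the shared stretch cannot be told apart. *Mars* itself came to −0.13 (SE 0.04, adjusted *P* = 0.0341) in this comparison, and the part of the overlap in the level of *Ddit3* was not tested.

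*Atf3* (ENSRNOG00000003745, chromosome 13, 109817728 to 109849632), a stress-induced factor and also an immediate early gene, was the most uneven of the 3. In Cx it stood at 1.73, 3.34, 4.09, 4.85 and 5.35 CPM on LS and at 3.45, 4.78, 7.18, 8.37 and 11.4 CPM at HS21, with 3 HS21 libraries above every LS library. The ratio of 0.86 (SE 0.35, adjusted *P* = 0.0685) missed the threshold (two-sided exact permutation test, *P* = 0.0873). Without replicate 13 of Cx HS21 it passed, at 1.03 (adjusted *P* = 0.0242), and with DESeq2's Wald test it passed at 0.87 (adjusted *P* = 0.0368). In OM at HS14 the libraries stood at 4.42, 4.65, 9.83, 9.92 and 35.8 CPM against 2.22, 3.50, 4.39, 5.54 and 5.96 CPM on LS. The highest of these was replicate 8, with 589 of the 973 counts of the group. This library was also the highest of the 15 OM libraries in 7 of 11 other immediate early genes, beside 8.41% of all genes that averaged 1 CPM or more. Replicate 8 of Cx HS14 was the highest of the 15 Cx libraries in 10 of 11, beside 7.24% of all such genes. The part of this in the level of *Atf3* was not tested. Its log2 ratio there was 1.59 (SE 0.57, adjusted *P* = 0.687), it was 0.75 (adjusted *P* = 0.998) without replicate 8, and no fit that left out 1 library called it. At HS21 the OM ratio of *Atf3* was 0.53 (SE 0.32, adjusted *P* = 0.612), that of *Atf4* −0.15 (SE 0.15, adjusted *P* = 0.829) and that of *Ddit3* −0.07 (SE 0.25, adjusted *P* = 0.970).

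The targets of ATF4 and CHOP held both calls. *Asns* (ENSRNOG00000007546, chromosome 4, 33743364 to 33761163) encodes asparagine synthetase, which makes asparagine from aspartate and glutamine. In Cx, *Asns* stood at 4.63, 5.12, 5.41, 6.17 and 6.69 CPM on LS, at 4.66, 5.10, 6.31, 8.03 and 13.5 CPM at HS14 and at 7.60, 8.23, 9.22, 9.50 and 12.2 CPM at HS21. Every HS21 library lay above every LS library (two-sided exact permutation test, *P* = 0.00794, the smallest that 5 against 5 allow). *Asns* and *Trib3* were the 2 of the 10 genes without overlap, where 26.6% of all genes did not overlap. The log2 ratio at HS21 was 0.74 (SE 0.16, adjusted *P* = 0.00320), a 1.66-fold rise, and it was called in all 10 fits that left out 1 library. At HS14 the ratio was 0.42 (SE 0.27, adjusted *P* = 0.481), and without replicate 10 of Cx HS14 it was 0.09 (adjusted *P* = 0.857). In OM, *Asns* averaged 17.1 ± 2.65 CPM on LS, 18.5 ± 1.72 CPM at HS14 and 17.7 ± 3.44 CPM at HS21. The OM ratio at HS21 was 0.05 (SE 0.15, adjusted *P* = 0.964), with a 95% confidence interval of −0.29 to 0.38.

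*Trib3* (ENSRNOG00000007319, chromosome 3, 147813473 to 147819571) encodes a pseudokinase that binds ATF4 and CHOP and restrains AKT. It was rare, with 12 to 16 counts per library and 0.918, 0.925, 1.02, 1.03 and 1.03 CPM in Cx on LS. At HS21 it stood at 1.11, 1.24, 1.53, 2.42 and 2.52 CPM, and every HS21 library lay above every LS library (two-sided exact permutation test, *P* = 0.00794). The HS21 libraries held 17 to 38 counts, so that at its narrowest the gap is 17 counts against 16. The log2 ratio was 0.83 (SE 0.27, adjusted *P* = 0.0283), a 1.78-fold rise. This call was close to the threshold. It was lost without any 1 of the 5 LS libraries (adjusted *P* = 0.0513 to 0.0587), without replicate 11 of Cx HS21 at 0.71 (adjusted *P* = 0.0683), without replicate 15 of Cx HS21 at 0.68 (adjusted *P* = 0.0701), with no filter on low counts at 0.83 (adjusted *P* = 0.0502) and in a fit with all 15 Cx libraries at 0.84 (adjusted *P* = 0.313). In OM the counts per library were 4 to 39, and the ratio was 0.61 (SE 0.31, adjusted *P* = 0.962) at HS14 and 0.51 (SE 0.46, adjusted *P* = 0.788) at HS21.

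*Chac1* (ENSRNOG00000014387, chromosome 3, 111160205 to 111163425), which encodes an enzyme that breaks down glutathione, did not pass the filter on low counts in Cx and so had no test there. The 5 Cx LS libraries held 12 counts in all (1 in each of 3 libraries, 4 and 5 in the others), or 0.160 CPM before TMM scaling (95% exact Poisson interval 0.0829 to 0.280). Cx HS14 held 55 counts, or 0.628 CPM before TMM scaling (95% exact Poisson interval 0.473 to 0.818), and Cx HS21 held 39, or 0.515 CPM before TMM scaling (95% exact Poisson interval 0.366 to 0.703). These intervals cover counting error only. All 5 libraries of either HS group lay above the LS median, and 3 of 5 in each lay above every LS library (two-sided exact permutation test, *P* = 0.0476 at HS14 and 0.0397 at HS21, among 10 genes compared). With no filter on low counts, the log2 ratio was 1.96 (SE 0.70, adjusted *P* = 0.197) at HS14 and 1.53 (SE 0.57, adjusted *P* = 0.0602) at HS21, and by DESeq2 it was 2.02 (SE 0.79, adjusted *P* = 0.120) and 1.59 (SE 0.70, adjusted *P* = 0.0657). None of the 4 passed the threshold. In OM, *Chac1* was tested and its ratio was 0.18 (SE 0.33, adjusted *P* = 0.994) at HS14 and −0.40 (SE 0.27, adjusted *P* = 0.681) at HS21, where 3 of 5 libraries lay below every LS library.

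At HS14, replicate 10 of Cx held many of the extreme values. It had the highest level of 4 of the 10 genes among all 15 Cx libraries and the lowest of 3 others. Among all genes that averaged 1 CPM or more, it was the highest in 7.67% and the lowest in 6.90%. *Trib3* stood there at 8.32 CPM against 0.347 to 2.30 CPM in the other 4 HS14 libraries, *Chac1* at 1.76 CPM against 0.137 to 0.747 CPM, *Asns* at 13.5 CPM against 4.66 to 8.03 CPM and *Ddit3* at 26.8 CPM against 15.2 to 19.4 CPM. These 4 are the targets and the CHOP gene. *Atf4* also lay above the other 4 libraries, at 139 CPM against 114 to 127 CPM. Of 28 other ATF4 target genes, 9 lay above and 9 below the other 4 libraries. In the other direction, *Hspa5* stood at 405 CPM against 629.7 to 750.5 CPM, *Hsp90b1* at 416 CPM against 533 to 624 CPM and *Herpud1* at 92.6 CPM against 146 to 201 CPM, which are the chaperones and the ERAD gene. Of 17 other ER folding genes, 12 lay below and 0 above the other 4 libraries, beside 31.1% below and 26.8% above among all genes that averaged 1 CPM or more. The same library had the lowest mean log2 CPM of the proximal tubule markers in its group (10.4 against a median of 10.96) and the highest mitochondrially encoded share of counts (17.5% against a median of 15.2%), and the part of these in its levels was not tested. Without it the log2 ratio of *Trib3* at HS14 went from 1.4 to 0.24, and again none of the 9 genes was called.

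The shallow OM library, replicate 10 of OM HS14, was low for the same ER genes and also for *Atf4*. *Atf4* stood there at 25.4 CPM against 121 to 168 CPM in the other 4 libraries, with 142 counts, *Herpud1* at 92.6 CPM against 220.1 to 289 CPM and *Ddit3* at 10.7 CPM against 23.3 to 31.4 CPM. *Asns* did not follow, at 20.2 CPM against 15.7 to 19.5 CPM. This library held the lowest value of the 15 OM libraries in 5 of the 10 genes and in 32.0% of all genes that averaged 1 CPM or more. It also had the highest mitochondrially encoded share of counts in its group (16.7% against a median of 14.6%), and the part of its depth and RNA quality in these levels was not tested. Without it the ratio of *Atf4* at HS14 was 0.03 (adjusted *P* = 0.971) in place of −0.23 (SE 0.39, adjusted *P* = 0.994), and again none of the 10 genes was called. The plot of the HS14 libraries against LS shows both libraries gene by gene.

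**Figure D3:**
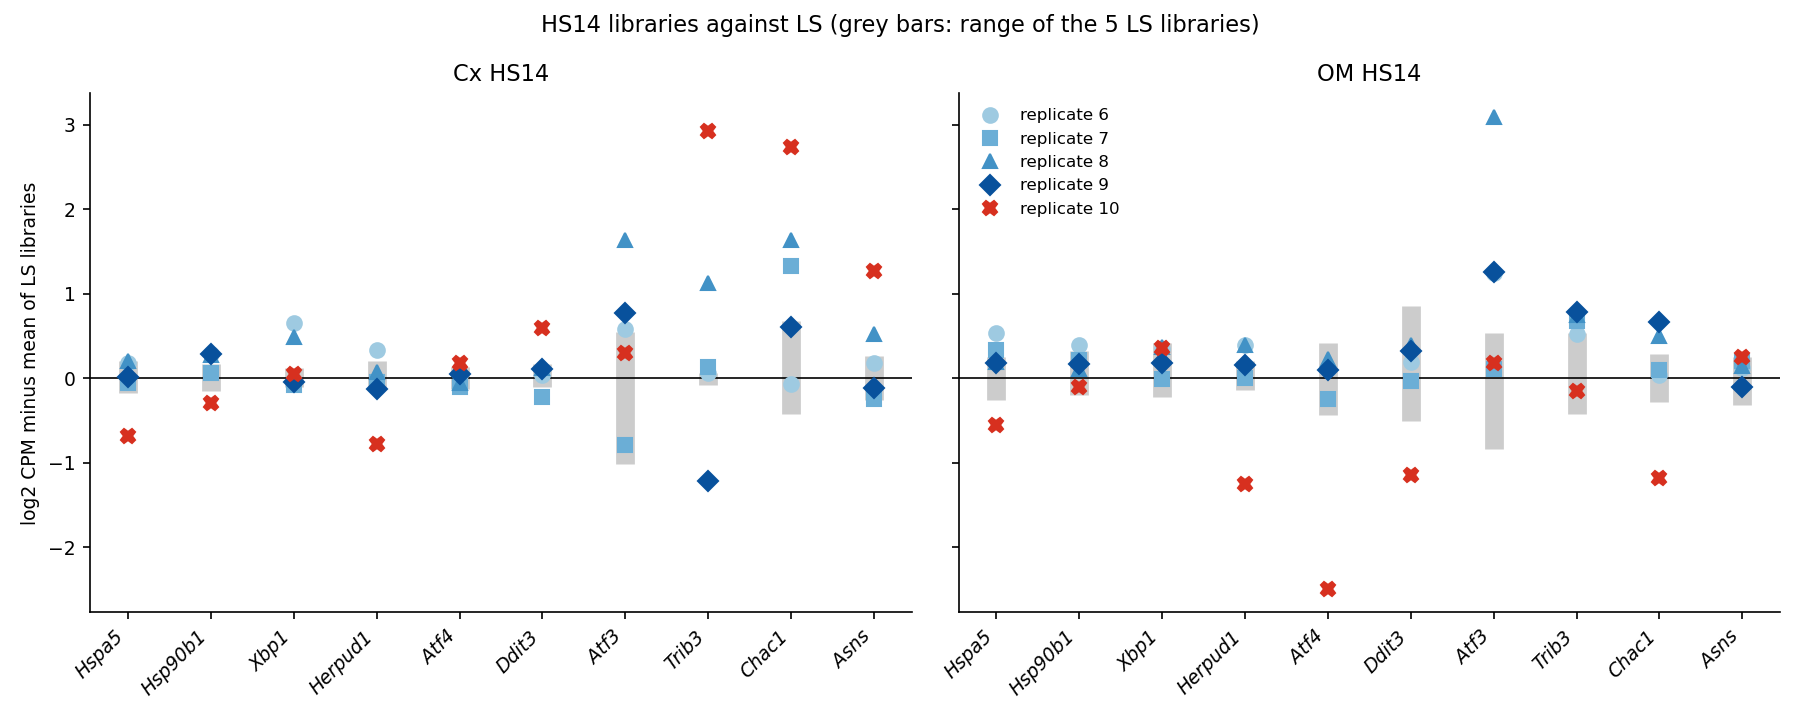
Log2 CPM of each HS14 library minus the mean of the 5 LS libraries of its tissue for the 10 genes, with grey bars for the range of the LS libraries and red crosses for replicate 10. In Cx, replicate 10 is above the others for *Atf4*, *Ddit3*, *Trib3*, *Chac1* and *Asns* and below them for *Hspa5*, *Hsp90b1* and *Herpud1*, and in OM it is lowest for *Atf4*.

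No member was called between the 2 times on high salt. In Cx none of the 9 genes was called between HS21 and HS14 (0 at an unadjusted *P* under 0.05, 0 by DESeq2, background 16.2%). *Asns* had a ratio of 0.32 (SE 0.28, adjusted *P* = 0.454), and without replicate 10 of Cx HS14 it was called at 0.63 (adjusted *P* = 0.0392). In OM none of 10 was called (0 at an unadjusted *P* under 0.05, 0 by DESeq2, background 0%). None of the 10 genes was free of overlap in either, where 9.66% and 0.655% of all genes were. The same held against LS in Cx at HS14 (background 5.07%), in OM at HS14 (1.53%) and in OM at HS21 (3.48%).

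More of the genes were called between the tissues. On LS, 6 of the 10 genes were called between OM and Cx, where 40.9% of all genes were. *Chac1* passed the filter on low counts here only through the OM libraries, and 5 of the other 9 genes were called. *Asns* stood at 13.5, 15.4, 17.4, 19.0 and 20.05 CPM in OM against 4.63, 5.12, 5.41, 6.17 and 6.69 CPM in Cx, a log2 ratio of 1.60 (SE 0.14, adjusted *P* = 2.08e-05). *Chac1* stood at 1.11, 1.27, 1.398, 1.49 and 1.72 CPM in OM against 0.0765, 0.0771, 0.0784, 0.294 and 0.321 CPM in Cx, a ratio of 2.94 (SE 0.39, adjusted *P* = 1.97e-04) that rests on 105 and 12 counts. Every OM library of *Asns* lay above every Cx library (two-sided exact permutation test, *P* = 0.00794). This test and the fits between tissues take the Cx and OM libraries as independent, although the tissues of a group share rats. *Xbp1* stood at 80.2, 83.0, 91.3, 94.6 and 125 CPM in OM, above all Cx LS libraries, a ratio of 0.46 (SE 0.11, adjusted *P* = 0.00914). *Herpud1* averaged 222 ± 23.7 CPM in OM against 159.7 ± 15.96 CPM in Cx, a ratio of 0.47 (SE 0.10, adjusted *P* = 0.00342).

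The chaperones went the other way. *Hspa5* stood at 375, 381, 470.3, 512 and 537 CPM in OM, below every Cx LS library, a ratio of −0.54 (SE 0.14, adjusted *P* = 0.0100). *Hsp90b1* stood at 333, 334, 384, 397 and 478 CPM in OM against 461, 486, 502, 542 and 575 CPM in Cx, where 4 of 5 OM libraries lay below every Cx library, a ratio of −0.42 (SE 0.12, adjusted *P* = 0.0163). These 2 calls depend on the scaling. With total-count scaling of the libraries, the median over all genes moved from 0.03 to 0.27, the split of all calls went from 3051 raised and 2794 lowered to 5546 and 1842, and the ratios were −0.30 (adjusted *P* = 0.0692) for *Hspa5* and −0.19 (adjusted *P* = 0.116) for *Hsp90b1*. The other 4 calls held under it, and *Atf4* at 0.49 (adjusted *P* = 0.0214) and *Ddit3* at 0.78 (adjusted *P* = 0.0410) were then called too. With TMM, *Atf4* had a ratio of 0.25 (SE 0.13, adjusted *P* = 0.168) and passed without replicate 3 of OM LS, at 0.34 (adjusted *P* = 0.0326). *Ddit3* had 0.50 (SE 0.24, adjusted *P* = 0.118) and passed without replicate 2 of OM LS, at 0.60 (adjusted *P* = 0.0472). *Atf3*, at 0.16 (SE 0.33, adjusted *P* = 0.734), and *Trib3*, at −0.24 (SE 0.24, adjusted *P* = 0.447), were not called. Groups did not overlap in 5 of the 10 genes (4 of 9 without *Chac1*), where 29% of all genes did not. The nephron markers above moved with this comparison, and their part in it was not tested.

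Whether the diet acted differently in the 2 tissues was tested by the interaction of tissue and diet. No gene of the 10 was called at HS14 (1 at an unadjusted *P* under 0.05, 0 by DESeq2, background 0%) or at HS21 (2 at an unadjusted *P* under 0.05, 0 by DESeq2, background 0.665%). The 2 genes at HS21 were *Chac1*, which passed the filter only through the OM libraries and rests on 12 counts in Cx LS, with a difference of log2 ratios (OM minus Cx) of −1.93 (SE 0.58, adjusted *P* = 0.113), and *Asns*, with −0.69 (SE 0.22, adjusted *P* = 0.142). Both passed without replicate 2 of OM LS, the library with the most proximal tubule transcripts of its group, at −1.98 (adjusted *P* = 0.0451) and −0.74 (adjusted *P* = 0.0427). *Hspa5* had a difference of 0.46 (SE 0.25, adjusted *P* = 0.376) and *Trib3* of −0.33 (SE 0.53, adjusted *P* = 0.807), with a 95% confidence interval of −1.45 to 0.79. The response of *Asns* in Cx at HS21 is therefore not shown to differ from that in OM.

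**Figure D4:**
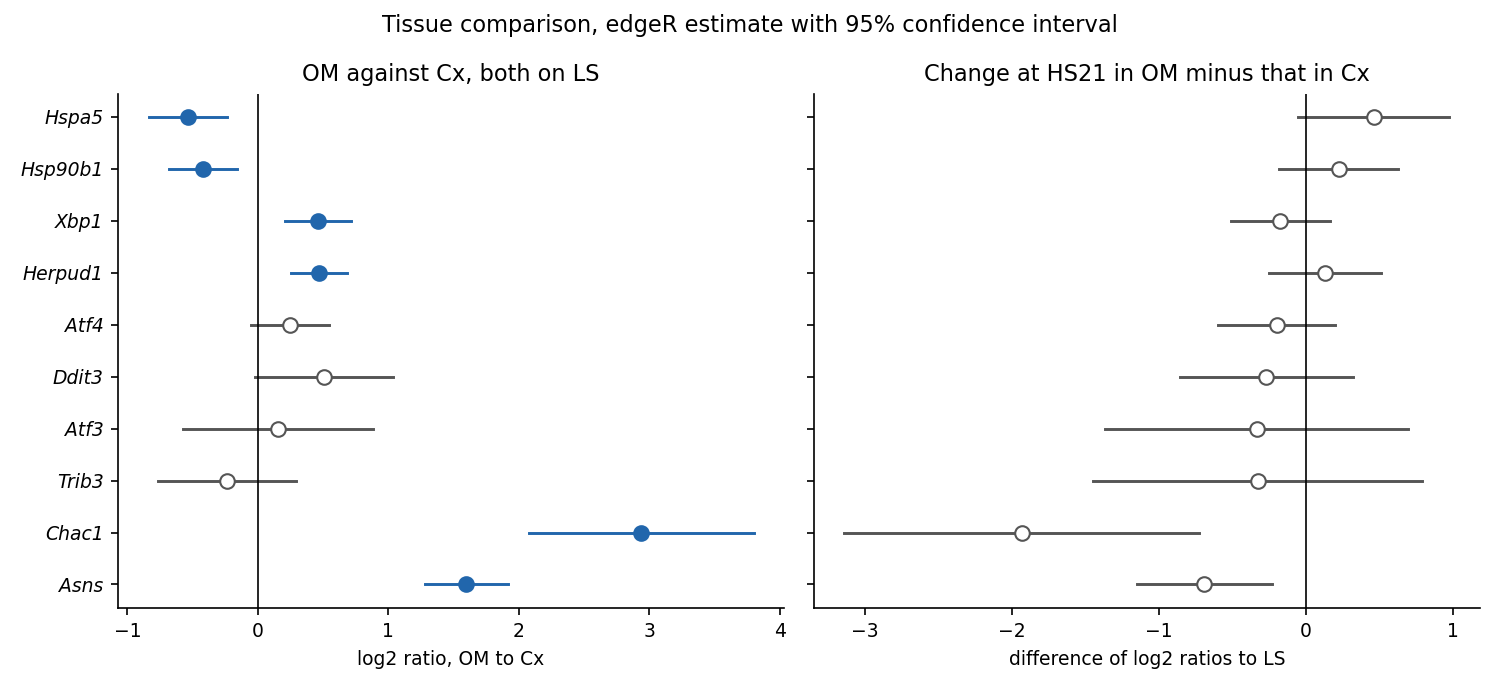
Log2 ratio of OM to Cx on LS (left) and the difference between the HS21 to LS log2 ratios of OM and Cx (right) for the 10 genes, with lines for the 95% confidence interval and filled points for an adjusted *P* under 0.05. On the left *Hspa5* and *Hsp90b1* lie below 0 and *Xbp1*, *Herpud1*, *Chac1* and *Asns* above it, and on the right no point is filled.

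The rest of the pathway was followed in 8 lists of 112 genes found in the table. In Cx at HS21, 11 of the 104 tested were raised and 38 lowered, beside 2702 raised and 2936 lowered of all 14299 genes. Directions of small changes rest on the scaling here. With total-count scaling the median of all genes moved from 0.00 to 0.13 and the split of all calls to 4401 raised and 1653 lowered. Among ER folding genes there were 1 raised and 3 lowered of 17 (median log2 ratio 0.07) and, with total-count scaling, 9 and 1. *Ppib*, a prolyl isomerase of the ER, was raised at 0.19 (SE 0.04, adjusted *P* = 0.00568). The co-chaperone *Dnajb9* had −0.40 (SE 0.08, adjusted *P* = 0.00174) and the lectin chaperone *Canx* −0.20 (SE 0.04, adjusted *P* = 0.00464), of which *Canx* was not called with total-count scaling (adjusted *P* = 0.286). Among ERAD genes there were 1 raised and 6 lowered of 14 (median −0.14), or 4 and 3 with total-count scaling. The segregase *Vcp* stood at 394 ± 17.7 against 515 ± 23.7 CPM, a ratio of −0.39 (SE 0.05, adjusted *P* = 1.54e-04), while the ER lectin *Os9* was raised at 0.19 (SE 0.04, adjusted *P* = 0.00445). Among sensors and eIF2alpha genes there were 0 raised and 3 lowered of 12 (median −0.05), or 1 and 2 with total-count scaling. The 2 with the smallest adjusted *P* were sensor genes, *Atf6* at 103 ± 4.64 against 137 ± 7.32 CPM, a ratio of −0.42 (SE 0.05, adjusted *P* = 1.28e-04), and *Eif2ak3* (PERK) at 37.7 ± 1.92 against 49.4 ± 2.81 CPM, a ratio of −0.39 (SE 0.06, adjusted *P* = 4.53e-04).

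Other ATF4 target genes moved in both directions in Cx at HS21, with 7 raised and 11 lowered of 23 (median log2 ratio −0.08), or 8 and 10 with total-count scaling. *Mthfd2*, a mitochondrial folate enzyme, stood at 5.66 ± 1.66 against 1.65 ± 0.430 CPM, a ratio of 1.78 (SE 0.25, adjusted *P* = 3.00e-04). The AP-1 repressor *Jdp2* had 1.16 (SE 0.19, adjusted *P* = 5.95e-04). Lowered were *Phgdh*, the first enzyme of serine synthesis, at 124 ± 14.7 against 203 ± 7.17 CPM and a ratio of −0.71 (SE 0.07, adjusted *P* = 4.59e-05), and the amino acid transporter heavy chain *Slc3a2*, at −0.57 (SE 0.05, adjusted *P* = 1.99e-05). Cytosolic tRNA synthetases, which ATF4 also drives, gave 0 raised and 6 lowered of 12 (median −0.13), or 1 and 2 with total-count scaling. *Aars* stood at 184 ± 17.4 against 285 ± 10.1 CPM, a ratio of −0.63 (SE 0.06, adjusted *P* = 3.76e-05), and *Tars* had −0.56 (SE 0.05, adjusted *P* = 3.25e-05). *Asns* and *Trib3* were thus raised where some other targets of ATF4 were lowered. Cytosolic heat shock genes gave 2 raised and 4 lowered of 10 (median −0.16), or 2 and 3 with total-count scaling, among them *Hspb1* at 0.68 (SE 0.17, adjusted *P* = 0.00925) and *Hspa1b* at 0.66 (SE 0.21, adjusted *P* = 0.0290) on the raised side. *Hspa1b* lost its call in 4 of 10 fits that left out 1 library and shares near-identical sequence with *Hspa1a*, so its counts are uncertain. *Dnaja1*, at −0.40 (SE 0.05, adjusted *P* = 2.34e-04), and *Hspa4*, at −0.30 (SE 0.05, adjusted *P* = 5.06e-04), were lowered. Mitochondrial chaperones and proteases gave 0 raised and 4 lowered of 5 (median −0.20), or 1 and 2 with total-count scaling, with *Hspd1* at −0.36 (SE 0.04, adjusted *P* = 1.19e-04) and *Hspa9* at −0.38 (SE 0.05, adjusted *P* = 2.66e-04). Immediate early genes gave 0 raised and 1 lowered of 11 (median 0.00), or 1 and 0 with total-count scaling. The 1 was *Jun*, at −0.45 (SE 0.15, adjusted *P* = 0.0270), which lost its call in 6 of 10 fits that left out 1 library and with total-count scaling (adjusted *P* = 0.105).

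**Figure D5:**
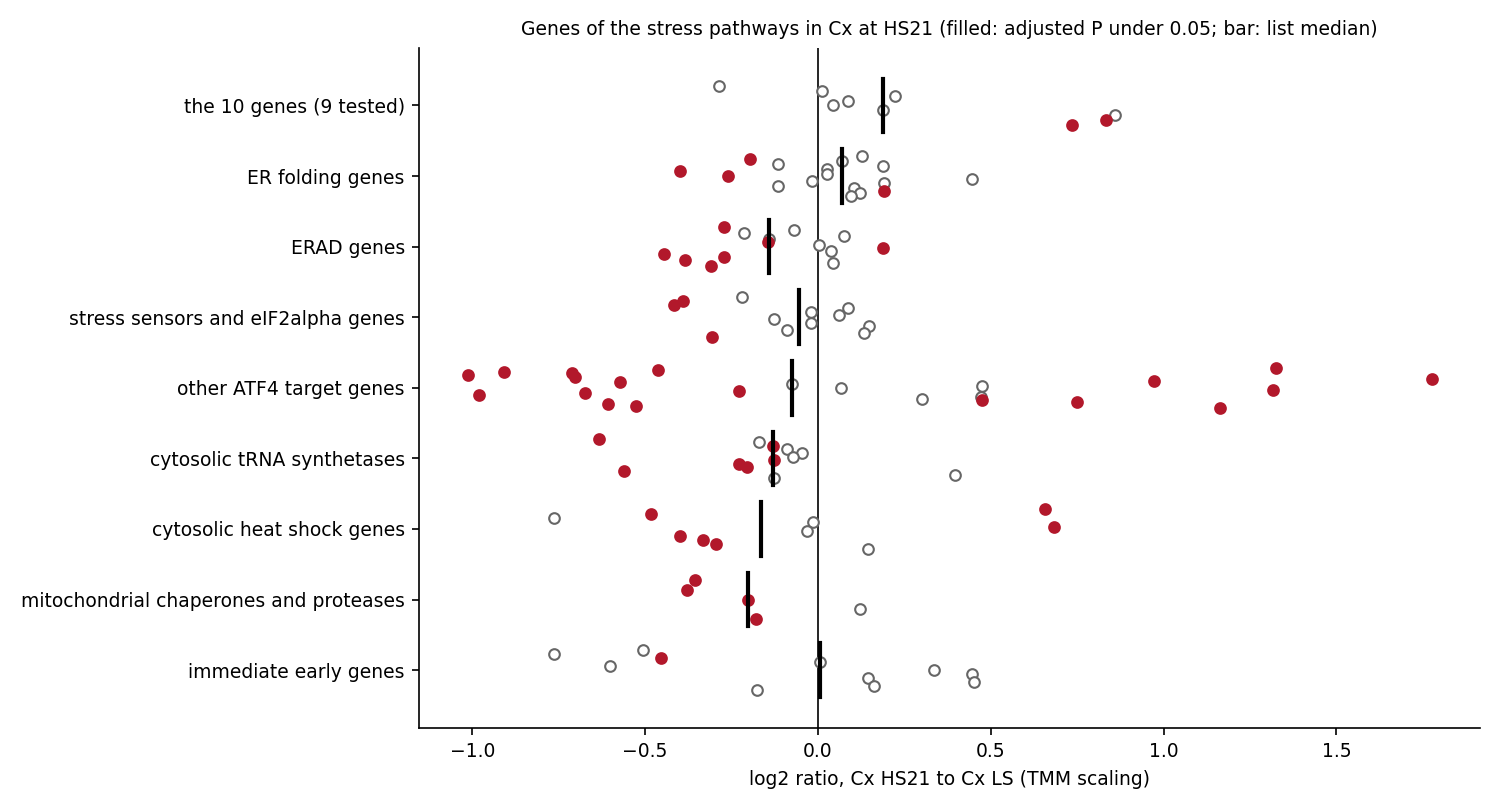
Log2 ratio of Cx HS21 to Cx LS (TMM scaling) for each tested gene of the 10 and of the 8 pathway lists, one point per gene, with filled points for an adjusted *P* under 0.05 and black bars for the list median. The other ATF4 target genes spread to both sides of 0, with 7 raised and 11 lowered, and 4 of the 5 mitochondrial genes tested are filled points below 0.

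In the other comparisons of high salt with LS few genes of these lists were called, and few of all genes. In Cx at HS14, 0 of 104 were raised and 2 lowered (17 at an unadjusted *P* under 0.05, 8 by DESeq2, background 2.33%). The 2 were *Cebpg*, a partner of ATF4, at −0.20 (SE 0.05, adjusted *P* = 0.0463), and *Tars*, at −0.25 (SE 0.06, adjusted *P* = 0.0443). Of the 10 fits that left out 1 library, *Cebpg* kept its call in 1, without replicate 10 of Cx HS14, and *Tars* in none, while DESeq2 called both. In OM at HS14, 0 of 104 were called (6 at an unadjusted *P* under 0.05, 2 by DESeq2, background 0.00694%). In OM at HS21, 1 of 104 was raised and 1 lowered (17 at an unadjusted *P* under 0.05, 9 by DESeq2, background 0.769%). The stanniocalcin gene *Stc2* stood at 29.9 ± 24.7 against 1.97 ± 1.34 CPM, a ratio of 3.91 (SE 0.67, adjusted *P* = 0.0342), and the glutamine transporter *Slc38a2* at 261 ± 17.8 against 428 ± 85.9 CPM, a ratio of −0.71 (SE 0.14, adjusted *P* = 0.0491). Of the 10 fits that left out 1 library, *Stc2* kept its call in 2, without replicate 12 or 13 of OM HS21, and *Slc38a2* in 1, without replicate 2 of OM LS. *Stc2* was called under all 5 other settings, and *Slc38a2* with DESeq2 and with its size factors. Between HS21 and HS14, 3 of 104 were raised and 22 lowered in Cx, beside 935 raised and 1395 lowered of all genes (2084 and 644 with total-count scaling, which moved their median from 0.01 to 0.13). In OM, 0 of 104 were called between these times (7 at an unadjusted *P* under 0.05, 3 by DESeq2, background 0%). Between OM and Cx on LS, 21 were raised and 32 lowered of 104 (background 40.9%), and in the list of other ATF4 targets 8 and 9 of 23, with log2 ratios from −3.29 to 1.89. The interaction of tissue and diet gave 0 of 105 at HS14 (2 at an unadjusted *P* under 0.05, 0 by DESeq2, background 0%). At HS21 it gave 1 of 104 (background 0.665%), *Stc2*, with a difference of 3.43 (adjusted *P* = 0.0345).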

How the data were processed

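Poly(A) libraries without strand information were sequenced as paired ends, and the authors aligned reads to Rnor_6.0 with HISAT2 2.0.5 and counted them per gene with featureCounts 1.5.0-p3 (StringTie 1.3.3b is also named in the submitters' processing notes). The deposited table holds the authors' raw counts, which were used here, and gene positions and lengths. It also holds values that were not used: the authors' FPKM, group means of their normalized signal, and the log2 fold changes and p-values of their own comparisons by DESeq2.

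Counts were filtered with filterByExpr, scaled by TMM and tested with edgeR 4.0.16 (quasi-likelihood F-test, R 4.3.3) on the libraries of the groups compared, with Benjamini-Hochberg adjustment over all genes and a threshold of 0.05. CPM per kilobase divides by the gene length given in the table. Log2 CPM used a prior count of 2. Single values were compared by two-sided exact permutation over 252 regroupings, whose smallest P is 0.00794. Totals of 5408126 to 21842843 counts set the precision, and intervals on counts cover counting error only. No 2 libraries of a group matched within sampling noise. P-values measure the spread between the libraries of a group. The scripts were tested on simulated data. Alternatives were DESeq2 1.42.0, its size factors in edgeR, total-count scaling, no low-count filter, all 15 libraries of a tissue in 1 fit, a replicate block and leaving out each library.

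All 10 members were named, and from each pathway list and comparison with LS up to 2 raised and 2 lowered genes with the smallest adjusted P. A gene that this rule takes is not reported here. *Mars* was named for its overlap with *Ddit3*. Of 116 pathway symbols 112 matched, 16 of them by older symbols. Members and lists were chosen with earlier results of these data known. Promoters came from RefSeq on GRCr8, another build than that of the counts, and no coordinates were converted.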

Additional observations from a re-analysis of the deposited data

Results flagged for a closer look

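A library was picked out where its gap to the nearest of the other 4, as a share of the range of its group, passed Dixon's critical value of 0.71. This held in 7 of 60 groups of libraries, and chance gives about 1 in 20. In OM HS14, replicate 10 was the lowest library for 4 genes. *Atf4* stood there at 25.4 CPM against 121 to 168 CPM in the other 4 libraries (gap of 0.825 of the range), *Herpud1* at 92.6 CPM against 220.1 to 289 CPM in the other 4 libraries (gap of 0.760 of the range), *Ddit3* at 10.7 CPM against 23.3 to 31.4 CPM in the other 4 libraries (gap of 0.722 of the range) and *Trib3* at 0.715 CPM against 1.22 to 1.499 CPM in the other 4 libraries (gap of 0.714 of the range). This is also the library with the fewest counts, 5408126, and the part of its depth in these levels was not tested. In Cx HS14, *Hspa5* was lowest in replicate 10, at 405 CPM against 629.7 to 750.5 CPM in the other 4 libraries (gap of 0.715 of the range). In OM HS21, *Xbp1* was highest in replicate 14, at 119 CPM against 91.7 to 95.01 CPM in the other 4 libraries (gap of 0.865 of the range). In Cx HS21, *Atf4* was highest in replicate 15, at 159.6 CPM against 113 to 124 CPM in the other 4 libraries (gap of 0.731 of the range).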

How the results depend on the processing

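Among values for single genes, 1053 of 1070 that left out 1 library and 423 of 435 under the other settings kept their side of the threshold. The sign changed in 81 of these 1505 values, 0 of them for a call. The count of members called in Cx at HS21 was 2, and it was 4 with DESeq2, 5 with total-count scaling, 1 with no low-count filter, 1 with all 15 libraries in the fit and 1 to 4 when 1 library was left out. With DESeq2's size factors in edgeR, *Xbp1* was called there beside *Asns* and *Trib3*. For the other comparisons, leaving out 1 library gave 0 to 1 between HS21 and HS14 in Cx, 6 to 7 between OM and Cx and 0 to 2 for the interaction at HS21. The 6 to 7 and the 2 include *Chac1*, which passed the filter on low counts there only through the OM libraries. Pathway genes called in Cx at HS14 went from 2 to 8 with DESeq2, 1 with total-count scaling and 0 to 2 when 1 library was left out. In OM they went from 0 to 2 with DESeq2 at HS14, from 2 to 9 with DESeq2, 1 with total-count scaling and 0 to 3 without 1 library at HS21, and from 0 to 3 with DESeq2 between HS21 and HS14. Without 1 library they were 43 to 49 in place of 49 in Cx at HS21, 15 (without replicate 9 of Cx HS14) to 42 (without replicate 10) in place of 25 between HS21 and HS14 in Cx, and 43 to 69 in place of 53 between OM and Cx. For the interaction at HS21 they were 13 with DESeq2 in place of 1, and 0 to 22 without 1 library, the highest without replicate 2 of OM LS. The cause of these shifts was not tested.

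With the replicate number as a replicate block, 6 members were again called between OM and Cx, beside 2442 raised and 2569 lowered of all 14295 genes. *Chac1*, which passed the filter on low counts only through the OM libraries, was among the 6. *Asns* had a log2 ratio of 1.59 with the block, and 0 members were called in the interaction at HS14 and at HS21. Same-numbered libraries of Cx and OM had correlated deviations above 0.1 in 10 of 15 pairs, and 13 of 15 libraries correlated best with their own number, as a hint from the data and not the design. Depth limits *Trib3* and *Chac1* most, with 12 to 16 and 1 to 5 counts per library in Cx LS.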
